A study of Homo sapiens with 6 samples.

Results

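The HOX genes are the homeobox transcription factor genes of the HOXA, HOXB, HOXC and HOXD clusters. Every gene of the count table whose Ensembl identifier carries a symbol made of HOX, a cluster letter and a number was taken, which gave 39 genes of 60483 in the table: 11 in HOXA, 10 in HOXB, 9 in HOXC and 9 in HOXD. On GRCh38 the HOXA genes lie on the - strand of chromosome 7, and the HOXB genes span chr17:48528526-48728750 on the - strand. The HOXC genes span chr12:53938831-54056030 and the HOXD genes chr2:176092721-176190907, both on the + strand. All 39 are annotated as protein coding.

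Each HOX protein binds DNA through its homeodomain, often together with a TALE homeodomain protein of the PBX, MEIS or PKNOX families. The number of a HOX gene is its paralogue group. Paralogue 1 lies at the 3′ end of its cluster and paralogue 13 at the 5′ end, and in the embryo genes nearer the 3′ end are used earlier and closer to the head. Outside the embryo, cells tend to keep a HOX pattern that reflects their origin, with Polycomb proteins keeping genes silent and Trithorax proteins keeping them active. HELLS, also called LSH, is a SNF2-family chromatin remodeller that is needed for normal CpG methylation, and clustered developmental genes are among the loci where it has been studied. In HAP1 cells, however, the ELISA of the study behind these libraries found global CpG methylation unchanged without HELLS.

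RNA was sequenced from HAP1 cells (line C631), a near-haploid human line derived from chronic myelogenous leukemia, and from a HELLS KO of HAP1, with 3 libraries of each genotype. The HELLS KO is 1 commercial clone with a single inserted base in exon 3 of HELLS, and both lines were grown without treatment. Replicate 3 of both genotypes carries a batch label that replicates 1 and 2 lack. The replicates are described as biological, but with 1 clone the knockout and the clone cannot be told apart, and p-values measure the spread between these libraries only. HAP1 cells can also turn diploid in culture, and the ploidy of the cells behind these libraries was not examined here.

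The libraries held between 13641237 and 24400187 counts, with the highest totals in both replicates 3. HELLS itself had 1444, 1488 and 3671 counts over the HAP1 libraries and 1410, 1375 and 2802 over those of HELLS KO (log2 fold change −0.24, SE 0.18, adjusted p 1.00 by edgeR's quasi-likelihood test). A single inserted base does not remove a gene's reads from a count, so this level does not check the labels. The marker lists did not set the labelled leukaemia origin apart: a mean of at least 1 CPM (counts scaled to library size) was reached by 7 of 19 blood and leukaemia markers, 4 of 5 neural, 4 of 6 pluripotent and germ cell, 4 of 8 mesenchymal, 3 of 6 epithelial and 0 of 4 endothelial markers. The highest blood marker was GATA2 at 111 CPM, beside DPPA4 at 197 CPM and NES at 188 CPM, while PTPRC, SPI1, MPO, ITGAM and HBG1 had 3 counts or fewer in every library. PTPRC encodes the pan-leukocyte antigen CD45 and SPI1 the myeloid factor PU.1.

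HAP1 cells expressed HOX genes from all 4 clusters, and the paralogue 13 gene of each cluster was among the 8 most abundant. Levels were compared between genes as FPKM, the deposited values that are scaled to depth and to gene length. A mean of at least 1 FPKM over the HAP1 libraries was reached by 25 of the 39 genes, and a mean of at least 10 FPKM by 11. By cluster, 10 of 11 HOXA, 6 of 10 HOXB, 6 of 9 HOXC and 3 of 9 HOXD genes reached 1 FPKM. In the whole FPKM table, 63.2% of 24956 genes did so.

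The summed FPKM of the HOX genes was 257 ± 14.8 (SD, n = 3) in HAP1. HOXA held 43.8% of it, HOXB 23.3%, HOXC 21.1% and HOXD 11.8%. By position, the 16 genes of paralogues 9 to 13 held 58.1%, the 11 genes of paralogues 5 to 8 held 23.5% and the 12 genes of paralogues 1 to 4 held 18.4%. The 4 paralogue 13 genes alone held 28.9%. Over the 4 clusters together the 5′ end thus weighed most, while the lower paralogues were also expressed. The HOXA genes of paralogues 9 to 13 alone held 28.8% of the HOX total. Paralogues 9 to 13 had the largest sum within HOXA, HOXC and HOXD, but not within HOXB. There the 4 genes of paralogues 1 to 4 summed to 33.37 ± 6.85 FPKM. The 2 HOXB genes of paralogues 9 to 13 summed to 23.04 ± 4.17 FPKM, with overlapping libraries.

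**Figure D1:**
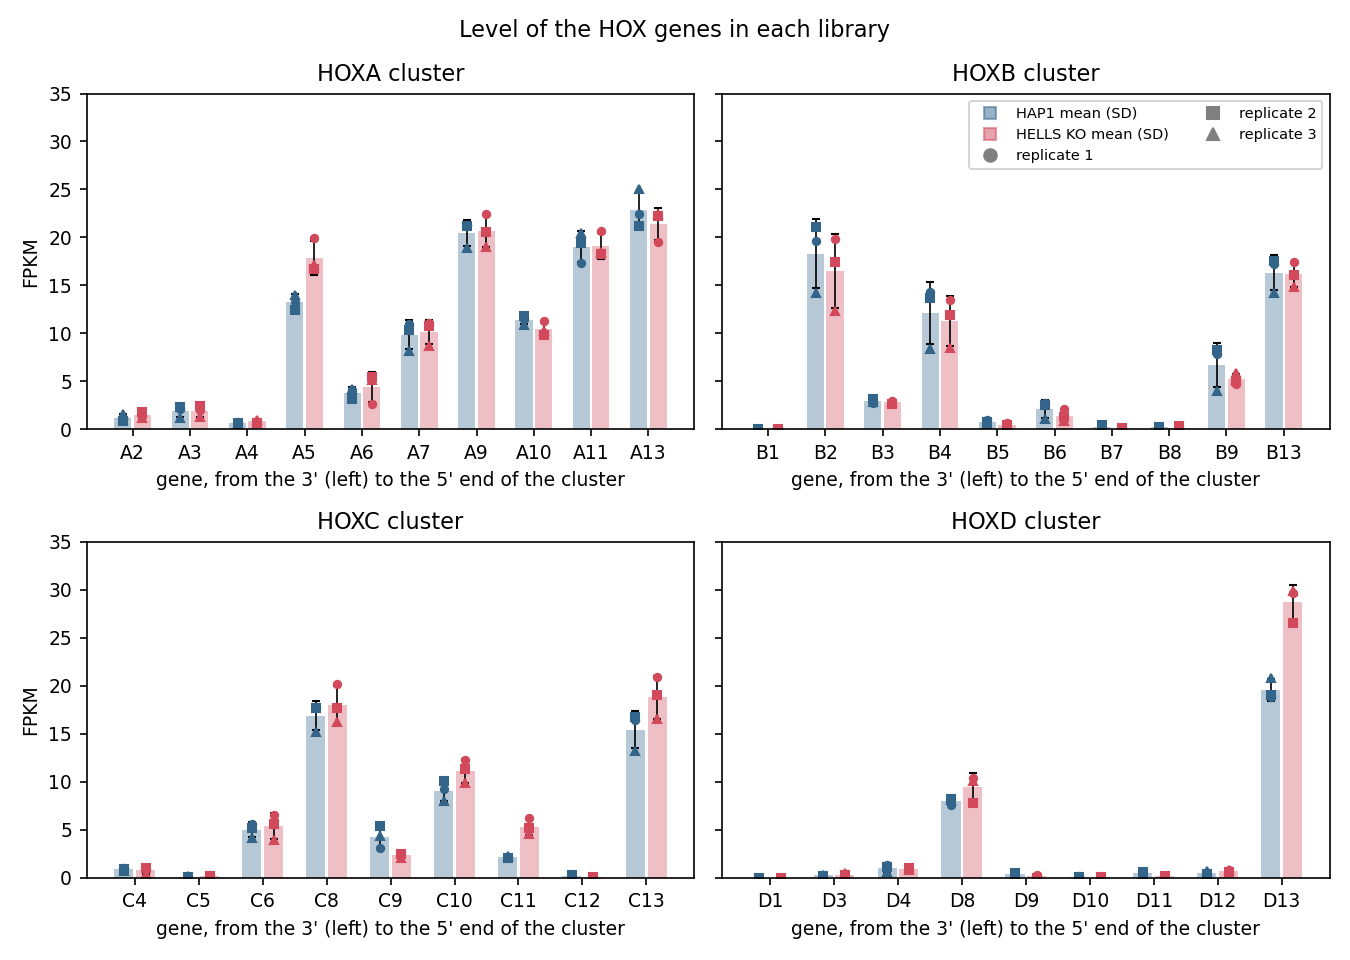
FPKM of the HOX genes named in the text (y axis) by cluster, from the 3′ end on the left to the 5′ end on the right, in HAP1 (blue) and HELLS KO (red). Bars are means of 3 libraries, lines are 1 SD and symbols are replicates 1, 2 and 3. HOXB1 and HOXD1 are not in the FPKM table and are drawn at 0. The paralogue 13 gene is high in every cluster, and in HOXD only HOXD8 and HOXD13 stand clear of the axis.

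HOXA13, which patterns the hand, foot, hindgut and genital tract, was the most abundant HOX gene at 22.9 ± 1.99 FPKM in HAP1. HOXA9, a factor of blood stem cells and of leukaemias with KMT2A fusions, followed at 20.4 ± 1.33 FPKM. HOXD13, which patterns the digits, had 19.6 ± 1.14 FPKM, and HOXA11, needed for the forearm, kidney and uterus, had 19.0 ± 1.58 FPKM. These were the 4 highest genes in the deposited FPKM, all from paralogues 9 to 13. HOXB2, a hindbrain gene, had 18.3 ± 3.60 FPKM, and HOXC8, a thoracic gene, had 16.9 ± 1.52 FPKM. HOXB13, a prostate and tail bud gene, had 16.3 ± 1.84 FPKM and HOXC13, needed for hair and nails, had 15.5 ± 1.93 FPKM. HOXA5 (13.2 ± 0.816 FPKM), HOXB4 (12.1 ± 3.23 FPKM) and HOXA10 (11.4 ± 0.479 FPKM) completed the genes above 10 FPKM.

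Levels fell gradually along this order and not in steps. Each gene overlapped the next lower one over the 3 HAP1 libraries, with 2 exceptions: the lowest library of HOXB3 (mean 2.93 FPKM) lay above the highest of HOXC11 (2.19 FPKM), and HOXD9 (0.419 FPKM) lay above HOXD3 (0.293 FPKM). The order of neighbours elsewhere is thus within the spread of the libraries. Within HOXA the genes of paralogues 9 to 13 had 11.4 to 22.9 FPKM and HOXA4, HOXA3 and HOXA2 had 0.652 to 1.88 FPKM. The middle of HOXB was low: between HOXB4 and HOXB9 (6.71 ± 2.33 FPKM), HOXB6 had 2.12 ± 0.895 FPKM and HOXB5, HOXB7 and HOXB8 were under 1 FPKM. HOXD was low at paralogues 9 to 12, which had 0.419, 0.113, 0.491 and 0.489 FPKM, between HOXD8 (7.96 ± 0.332 FPKM) and HOXD13.

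A level rests on the gene length behind it, and for a few HOX genes that length is uncertain. The length behind the FPKM of HOXB4 was 3756 bases, against 2002 exonic bases in GENCODE release 44. That of HOXD12 was 1346 bases against 2577, that of HOXA11 2306 against 2669 and that of HOXC8 1888 against 2417. With the GENCODE lengths HOXB4, of paralogue group 4, would stand higher and HOXA11 lower. The make-up of the 4 highest genes thus depends on the lengths. Overlap matters too, since the strand setting of the counting is not given in the sources used here: 62.5% of the exonic bases of HOXA7, 39.3% of HOXA6, 27.2% of HOXA11 and 24.4% of HOXD8 overlap exons on the opposite strand. On the same strand, 67.3% of HOXC5 and 31.3% of HOXA4 overlap other genes. Similarity between the clusters was a smaller matter, since at most 0.995% of the stretches of 31 bases of a HOX gene occurred in a HOX gene of another cluster.

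Promoter sequence is shown for the most abundant gene of HOXA and of HOXD, each with a neighbour whose values are set beside it below. Each line gives the 250 bases before the RefSeq start of the gene (GRCh38.p14), 5′ to 3′ on the gene's own strand, with CpG dinucleotides, the sites of DNA methylation, in capitals. The windows are chr7:27200092-27200341 (- strand) for HOXA13, chr7:27200171-27200420 (+ strand) for its antisense neighbour HOTTIP, chr2:176092471-176092720 (+ strand) for HOXD13 and chr2:176107030-176107279 (+ strand) for HOXD11.
HOXA13: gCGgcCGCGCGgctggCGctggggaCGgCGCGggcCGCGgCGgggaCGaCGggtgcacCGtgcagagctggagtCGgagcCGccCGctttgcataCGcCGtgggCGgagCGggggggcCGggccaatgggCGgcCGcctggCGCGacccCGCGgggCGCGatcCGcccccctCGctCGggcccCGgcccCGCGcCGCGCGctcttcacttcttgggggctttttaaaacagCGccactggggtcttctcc
HOTTIP: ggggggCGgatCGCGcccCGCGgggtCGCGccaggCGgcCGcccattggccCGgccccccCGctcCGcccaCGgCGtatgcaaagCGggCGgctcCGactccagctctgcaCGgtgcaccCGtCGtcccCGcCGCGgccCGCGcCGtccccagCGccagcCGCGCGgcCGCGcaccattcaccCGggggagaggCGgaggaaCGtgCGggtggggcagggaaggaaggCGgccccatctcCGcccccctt
HOXD13: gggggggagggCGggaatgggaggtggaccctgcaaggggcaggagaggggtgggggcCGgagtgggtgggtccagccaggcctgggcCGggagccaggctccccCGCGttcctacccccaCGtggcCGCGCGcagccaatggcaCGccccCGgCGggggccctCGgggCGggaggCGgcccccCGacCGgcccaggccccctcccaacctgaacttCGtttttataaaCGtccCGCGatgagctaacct
HOXD11: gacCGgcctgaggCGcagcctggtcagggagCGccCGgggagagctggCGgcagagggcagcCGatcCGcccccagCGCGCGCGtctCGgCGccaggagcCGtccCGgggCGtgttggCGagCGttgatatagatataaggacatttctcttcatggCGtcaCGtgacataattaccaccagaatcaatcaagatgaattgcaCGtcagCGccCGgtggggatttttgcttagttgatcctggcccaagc

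By their RefSeq starts, HOXA13 and HOTTIP begin 330 bases apart on opposite strands, and their windows share 171 bases. In GENCODE release 44 HOTTIP spans chr7:27198575-27207259 and begins inside the span of HOXA13. The HOXA13 window holds 40 CpG, a number that 2.17% of the 34943 distinct windows of the RefSeq promoter table reach, and the HOTTIP window 38, which 3.29% reach. HOXD13 has 21 CpG and HOXD11 has 23, reached by 30.2% and 25.8% of windows. Windows were found for 20 of the 39 HOX genes (26 distinct windows, of which 7 belong to HOXA3 and 1 is shared by HOXC4 and HOXC5), with a median of 19.5 CpG against 11 over all windows. On either strand, CCAAT occurred in 17 of the 26 windows (65.4%) against 32.0% of all windows, TATAAA in 5 (19.2%) against 10.8%, and TGATTNAT, a site that PBX and HOX proteins can bind jointly, in 2 (7.69%, at HOXA2 and HOXD11) against 2.49%. HOXA13 and HOXD13 both hold CCAAT, and HOXD13 holds TATAAA on both strands in overlapping positions just before the start. These matches describe letters only, and methylation was not measured in these libraries.

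In HELLS KO 1 HOX gene, HOXC11, was called higher and 0 were called lower. A gene was called where edgeR's quasi-likelihood test gave an adjusted p below 0.05, over all 17925 genes tested, and the log2 fold change reached 1 in either direction. Of those genes, 1.5% were called higher and 0.72% lower, beside 1 and 0 of the 31 HOX genes tested. DESeq2 also called 1 HOX gene higher and 0 lower. At an unadjusted p under 0.05 there were 5 HOX genes (HOXC11, HOXD13 and HOXA5 upward, HOXC9 and HOXD11 downward), which is 16.1% of those tested against 6.59% of all genes. Among the tested HOX genes, the same 5 were those whose 3 HAP1 and 3 HELLS KO libraries did not overlap in CPM, again 16.1% against 10.1% of all genes tested. Of these 5, HOXD11 passed the filter on low counts only through HAP1, which favours a lower value in HELLS KO. HOXC12 and HOXD9, which were not tested, did not overlap either and were lower in HELLS KO in CPM.

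The summed FPKM of the HOX genes in HELLS KO was 272 ± 19.0, against 257 ± 14.8 in HAP1, with overlapping libraries. Of the 31 fold changes 17 were positive and 14 negative, with a median log2 fold change of 0.02, beside a median of 0.01 and 52.0% positive among all genes tested. The fold changes ran from −1.48 to 1.28 on the log2 scale. In HELLS KO 24 genes reached 1 FPKM, the difference being HOXD4, which went from 1.03 ± 0.372 to 0.918 ± 0.111 FPKM.

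**Figure D2:**
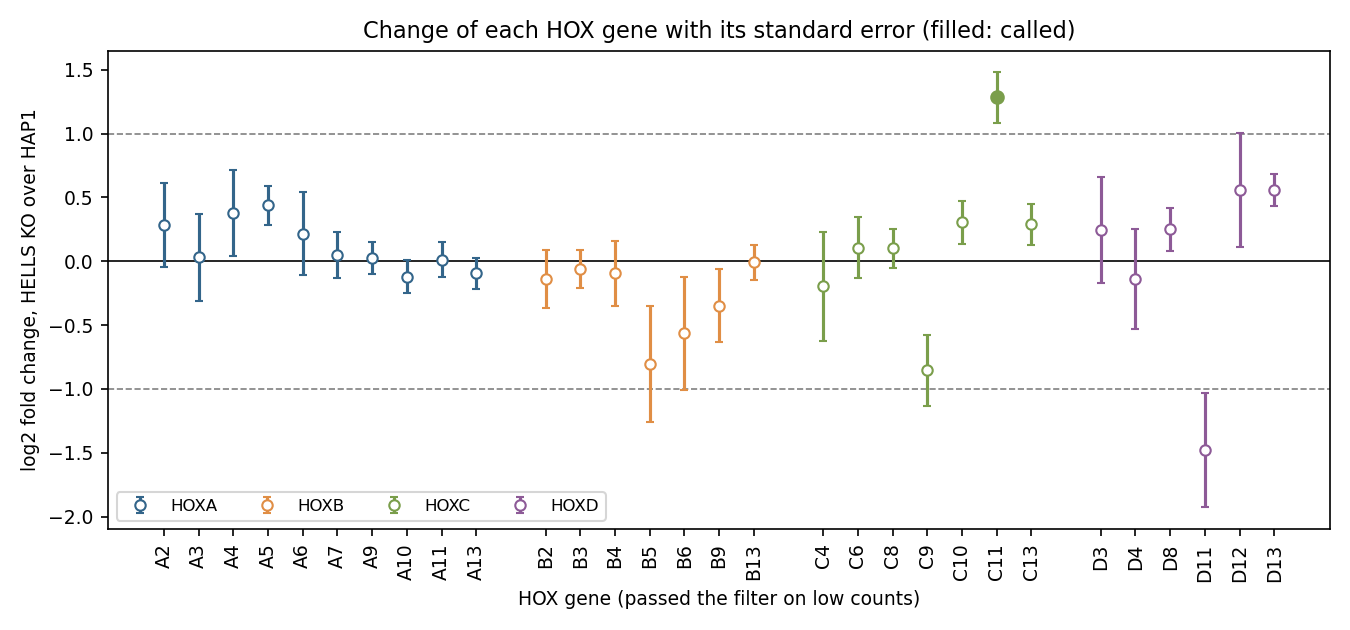
Log2 fold change of HELLS KO over HAP1 (y axis) with its standard error for HOX genes that passed the filter on low counts and are named in the text, by cluster and from the 3′ to the 5′ end. Dashed lines mark the cut-off of 1 in each direction and the filled point is the called gene, HOXC11. The 7 HOXB genes lie at or below 0, between −0.81 and −0.01.

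HOXC11, a gene of the hindlimb and lumbosacral region, had 104, 93 and 184 counts over the HAP1 libraries and 302, 247 and 366 over those of HELLS KO. Scaled to depth these were 7.31, 6.77 and 7.67 CPM against 20.8, 17.3 and 15.0 CPM. Every HELLS KO library lay above every HAP1 library, and the mean was 2.44-fold higher, at 5.32 ± 0.867 against 2.19 ± 0.125 FPKM. The log2 fold change was 1.28 (SE 0.20, adjusted p 0.017). Within replicates 1 and 2 it was 1.41 (adjusted p 0.018), and in the pair of replicate 3 libraries the log2 ratio was 0.97, so the difference was present on both sides of the batch label. Leaving out HAP1 replicate 1 (adjusted p 0.089) or replicate 2 (0.090) lost the call, as did leaving out replicate 1 (0.063) or replicate 2 (0.10) of HELLS KO, with log2 fold changes of 1.15 to 1.38 over all 6 such fits. The call was also lost where at least 10 counts were required in every library (1.29, adjusted p 0.054) and with limma on log2(FPKM + 1) (0.98, adjusted p 0.076). No stretch of 31 bases of HOXC11 occurred in another gene, and none of its exonic bases overlaps another gene's.

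HOXC11 lies between HOXC12 and HOXC10 on the + strand, at chr12:53973126-53977643, and its start lies inside the span of HOTAIR, a long non-coding RNA on the - strand at chr12:53962308-53974956. HOTAIR is known for binding chromatin-modifying complexes and for effects on the HOXD cluster that have been debated. It had 44, 30 and 69 counts over the HAP1 libraries and 86, 115 and 195 over those of HELLS KO, or 2.72 ± 0.476 against 7.32 ± 1.22 CPM, again with no overlap. Its log2 fold change was 1.43 (SE 0.26, adjusted p 0.038), which was called, but each of the 6 fits without 1 library lost the call (adjusted p 0.061 to 0.187), as did replicates 1 and 2 alone (0.087), the minimum of 10 counts (0.106) and limma on log2(FPKM + 1) (0.153) or log2(FPKM + 0.1) (0.106). HOTAIR and HOXC11 share 0 exonic bases in GENCODE release 44.

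HOXC13-AS, a long non-coding RNA on the - strand at the 5′ end of HOXC13, was the other called gene at this end. Its counts were 20, 7 and 23 in the HAP1 libraries and 74, 57 and 104 in those of HELLS KO, or 0.958 ± 0.449 against 4.45 ± 0.569 CPM. The groups did not overlap, and the log2 fold change was 2.20 (SE 0.39, adjusted p 0.033). It too was called in none of the 6 fits without 1 library (adjusted p 0.051 to 0.136), nor within replicates 1 and 2 (0.085) or with limma on log2(FPKM + 1) (0.054) or log2(FPKM + 0.1) (0.059). HOXC13-AS shares 172 of its 1408 exonic bases with HOXC13, which had 15.5 ± 1.93 FPKM in HAP1 and 18.8 ± 2.20 FPKM in HELLS KO, beside 0.671 ± 0.316 and 3.11 ± 0.408 FPKM of HOXC13-AS.

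**Figure D3:**
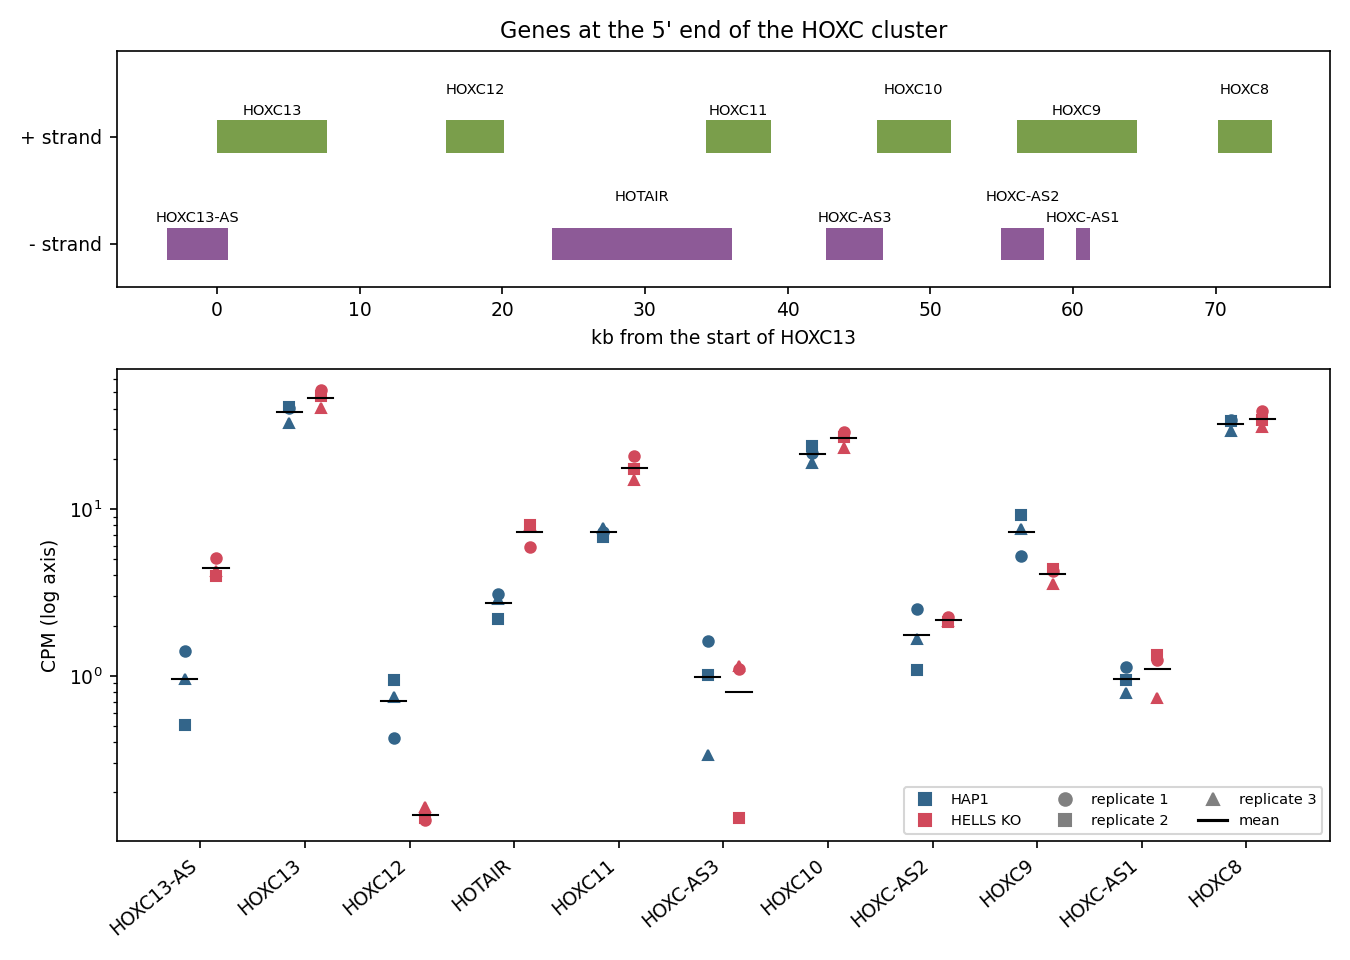
Top, gene spans at the 5′ end of HOXC by strand, in kb from the start of HOXC13 (HOXC6, HOXC5 and HOXC4 are not drawn). Bottom, CPM of each gene in every library on a log axis, with the mean as a line. HOXC13-AS, HOTAIR and HOXC11 are higher in all 3 HELLS KO libraries, HOXC12 and HOXC9 are lower, and the HOXC8, HOXC10 and HOXC13 groups overlap.

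No other HOXC gene was called. HOXC13 had 571, 562 and 787 counts over the HAP1 libraries and 748, 676 and 985 over those of HELLS KO (log2 fold change 0.29, SE 0.16). HOXC10, a lumbar gene, had 308, 326 and 456 against 424, 388 and 565 (0.30, SE 0.17). Both differences were positive in each fit without 1 library, from 0.19 to 0.38 for HOXC13 and from 0.22 to 0.39 for HOXC10, but their CPM overlapped and their adjusted p was 1.00. HELLS KO had the higher CPM in each of the 3 same-numbered pairs for both genes, and with the replicate block the adjusted p was 0.24 for HOXC13 and 0.35 for HOXC10. HOXC8 had 483, 465 and 702 counts against 564, 489 and 757 (0.10, SE 0.15), and HOXC6 had 287, 256 and 362 against 344, 292 and 340 (0.11, SE 0.24). HOXC4 had 39, 35 and 50 counts against 39, 40 and 25 (−0.19, SE 0.43), where the only low library was HELLS KO replicate 3.

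HOXC9, a thoracic gene known from motor neuron patterning, lay on the other side of 0. It had 74, 127 and 181 counts over the HAP1 libraries and 62, 62 and 87 over those of HELLS KO, or 5.20, 9.24 and 7.55 CPM against 4.26, 4.34 and 3.57 CPM. The HELLS KO libraries were the lower ones without overlap, at a log2 fold change of −0.86 (SE 0.27) that did not pass the adjustment (p 0.016, adjusted p 0.36). HOXC12, between HOTAIR and HOXC13, had 6, 13 and 18 counts against 2, 2 and 4 and was left untested by the filter. Its groups did not overlap either, but the HELLS KO libraries were at 0.137 to 0.164 CPM, where 3 counts correspond to 0.123 to 0.220 CPM. With no filter its log2 fold change was −2.19 (adjusted p 0.29). HOXC5 had 2, 2 and 8 counts against 8, 4 and 10, and most of its exonic bases overlap other genes as given above.

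In HOXD no gene was called, and the difference in level was concentrated at HOXD13. HOXD13 had 604, 591 and 1147 counts over the HAP1 libraries and 982, 873 and 1649 over those of HELLS KO, or 42.5, 43.0 and 47.8 CPM against 67.5, 61.1 and 67.7 CPM. The libraries of each genotype were close together and did not overlap with the other genotype. In FPKM the level went from 19.6 ± 1.14 to 28.7 ± 1.84, which made HOXD13 the most abundant HOX gene of HELLS KO. The log2 fold change of 0.56 (SE 0.13) had an adjusted p of 0.094. It stayed between 0.53 and 0.61 without any 1 library and was 0.57 within replicates 1 and 2 and 0.50 in replicate 3. Blocking on the replicate number gave an adjusted p of 0.012 and DESeq2 one of 0.048, but the fold change is under the cut-off of 1 in each case, so HOXD13 was called in none of these fits. The summed FPKM of HOXD was 29.5, 30.2 and 31.3 in HAP1 and 42.5, 36.4 and 42.6 in HELLS KO, a share of 11.8% and 14.9% of the HOX total.

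HOXD11, needed with HOXA11 for the forearm and kidney, had 16, 18 and 17 counts over the HAP1 libraries and 4, 5 and 11 over those of HELLS KO. All HELLS KO libraries lay below all HAP1 libraries, at 0.359 ± 0.0888 against 1.05 ± 0.308 CPM. The log2 fold change was −1.48 (SE 0.45, adjusted p 0.30), past the fold cut-off and not past the adjusted p. HOXD11 shares 21.4% of its exonic bases with HOXD10, which had 6 counts or fewer in every library. HOXD12, a digit gene between HOXD13 and HOXD11, had 6, 8 and 24 counts against 16, 11 and 28 (0.56, SE 0.45), with overlapping groups. HOXD9 had 12, 12 and 16 counts against 8, 0 and 8, or 0.844, 0.873 and 0.667 CPM against 0.550, 0 and 0.329 CPM without overlap, and was not tested. HOXD9 to HOXD12 were thus all near the low end of what these libraries can measure.

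HOXD8 had 286, 300 and 520 counts over the HAP1 libraries and 405, 299 and 656 over those of HELLS KO (0.25, SE 0.17), with HELLS KO replicate 2 at the HAP1 level. HOXD4 had 28, 23 and 22 against 20, 22 and 29 (−0.14, SE 0.39) and HOXD3 had 17, 11 and 28 against 12, 16 and 43 (0.24, SE 0.41). Neither had a direction beyond its error. HOXD1 had 0, 1 and 2 counts in HAP1 and 0 in each HELLS KO library.

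HOXA, the cluster with the highest HOX expression, held no called gene. Its summed FPKM was 112 ± 1.87 in HAP1 and 116 ± 2.89 in HELLS KO, and the 11 log2 fold changes lay between −0.12 and 0.44. HOXA13 had 1636, 1496 and 3130 counts over the HAP1 libraries and 1465, 1661 and 2808 over those of HELLS KO (−0.09, SE 0.12). HOXA11 had 573, 621 and 1156 against 706, 617 and 1048 (0.01, SE 0.14). HOXA10, a uterine and blood progenitor gene, had 614, 608 and 990 against 619, 534 and 938 (−0.12, SE 0.13). HOXA9 had 924, 889 and 1405 against 1004, 914 and 1419 (0.02, SE 0.13). None of these 4 differences exceeded its standard error.

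HOXA5, which acts in lung development and is often methylated in tumours, was the HOXA gene whose genotypes were furthest apart. It had 325, 294 and 588 counts over the HAP1 libraries and 502, 417 and 719 over those of HELLS KO, or 22.9, 21.4 and 24.5 CPM against 34.5, 29.2 and 29.5 CPM. The groups did not overlap, at a log2 fold change of 0.44 (SE 0.15, p 0.021, adjusted p 0.44). HOXA7, also thoracic, had 381, 348 and 485 counts against 393, 380 and 518 (0.05, SE 0.18), and HOXA6 had 76, 56 and 132 against 50, 102 and 164 (0.21, SE 0.33). Their groups overlapped.

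HOXA4, HOXA3 and HOXA2 overlapped between genotypes as well. HOXA4 had 18, 17 and 23 counts against 20, 18 and 44 (0.38, SE 0.34). HOXA3, which acts in the thymus and parathyroid, had 130, 138 and 129 against 127, 156 and 132 (0.03, SE 0.34), and HOXA2, which patterns the second pharyngeal arch, had 40, 29 and 95 against 49, 65 and 74 (0.29, SE 0.33). None of these 3 passed an unadjusted p of 0.05. HOTTIP, the RNA that starts beside HOXA13 and is known for recruiting KMT2 complexes to the 5′ HOXA genes, had 678, 585 and 830 counts over the HAP1 libraries and 362, 356 and 650 over those of HELLS KO. Its CPM did not overlap, at 41.6 ± 6.59 against 25.5 ± 1.04, and the log2 fold change was −0.70 (SE 0.16, adjusted p 0.11). Blocking on the replicate number gave −0.69 (adjusted p 0.025) and replicates 1 and 2 alone gave −0.88 (adjusted p 0.025), both past 0.05 but under the fold cut-off of 1, and the log2 ratio in replicate 3 was −0.37. In GENCODE release 44 HOTTIP and HOXA13 share 86 of the 5086 exonic bases of HOTTIP, and the level of HOXA13 overlapped between genotypes.

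All 7 tested HOXB genes had a negative log2 fold change, and none passed an unadjusted p of 0.05. HOXB13 had 855, 846 and 1209 counts over the HAP1 libraries and 894, 820 and 1268 over those of HELLS KO (−0.01, SE 0.14). HOXB2 had 659, 682 and 815 against 685, 597 and 707 (−0.14, SE 0.23), and HOXB4, a gene known to expand blood stem cells, had 769, 715 and 775 against 751, 656 and 785 (−0.09, SE 0.25). The sign of these 3 depended on the libraries: HOXB2 turned positive in 1 fit without a library (0.03), HOXB4 in 3 (up to 0.08) and HOXB13 in 3 (up to 0.05). HOXB3, a hindbrain gene like HOXB2, had 296, 327 and 524 counts against 326, 286 and 518 (−0.06, SE 0.15).

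Larger differences in HOXB came with larger errors. HOXB9, a thoracic gene, had 291, 295 and 255 counts over the HAP1 libraries and 182, 190 and 373 over those of HELLS KO (−0.35, SE 0.28). Its direction was not the same on both sides of the batch label: within replicates 1 and 2 the log2 fold change was −0.72 (adjusted p 0.058), and in replicate 3 the log2 ratio was 0.53. HOXB6 had 102, 92 and 70 counts against 80, 49 and 59 (−0.56, SE 0.44) and HOXB5 had 27, 23 and 26 against 19, 12 and 13 (−0.81, SE 0.45), both with overlapping CPM. HOXB7 had 1, 9 and 10 counts against 0, 2 and 0, HOXB8 had at most 9 counts in any library, and HOXB1 had 0 in all 6. These 3 were among the 8 HOX genes that the filter left untested, none of which exceeded 18 counts.

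The libraries with the batch label differed from the others in HOX levels, and for most genes in like direction in both genotypes. That likeness was not particular to HOX genes. Across all genes tested, the deviations of the 2 replicate 3 libraries from their genotype means correlated at 0.78. For the 25 genes at 1 FPKM or more, the ratio of replicate 3 to the mean of replicates 1 and 2 had a median of 0.65 in HAP1 and 0.78 in HELLS KO over the HOXB genes, and of 0.84 and 0.83 over the HOXC genes. Over the HOXA genes it was 1.10 and 0.94 and over the HOXD genes 1.02 and 1.06, beside 0.99 and 1.00 over all 15779 genes at that level. The ratio was below 1 in both genotypes for 13 of the 25 genes, not far from the 43.5% of all genes at that level. HOXA6, HOXA13, HOXD8 and HOXD13 were among the genes above 1 in both. HOXA3 was at 0.55 and 0.56 of the mean of replicates 1 and 2, HOXB4 at 0.60 and 0.67 and HOXB6 at 0.42 and 0.55. For these genes the replicate 3 libraries differed from replicates 1 and 2 by more than the genotypes did. The part of the batch in the HOX results was not tested beyond the within-replicate values and fits given here.

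**Figure D4:**
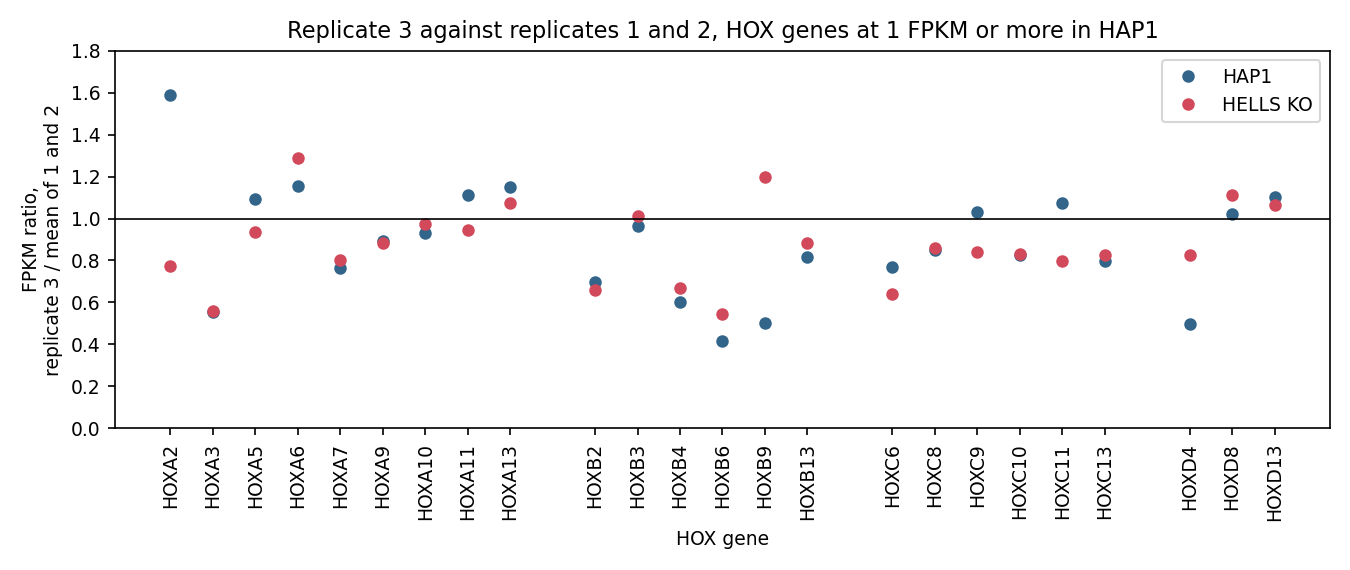
Ratio of FPKM in replicate 3 to the mean of replicates 1 and 2 (y axis) for HOX genes named in the text at 1 FPKM or more in HAP1, in HAP1 (blue) and HELLS KO (red). The line marks a ratio of 1. The 2 genotypes lie close together for most genes, as for HOXA3 and HOXB4, and apart for HOXA2 and HOXB9.

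Around the HOX genes, the list of other cluster genes, mostly long non-coding RNAs, held 20 genes in the table. Of these 15 were tested, and 2 were called higher (HOTAIR and HOXC13-AS) and 0 lower, with 4 at an unadjusted p under 0.05 and a median log2 fold change of 0.08. Among all genes tested, 1.5% were called higher, 0.72% lower and 6.59% had an unadjusted p under 0.05. HAGLR, antisense to the 3′ HOXD genes, had 65, 33 and 85 counts over the HAP1 libraries and 22, 30 and 54 over those of HELLS KO (−0.84, SE 0.34, adjusted p 0.67). HOTAIRM1, a HOXA cluster RNA known from myeloid differentiation, had 133, 136 and 213 counts against 190, 155 and 215 (0.22, SE 0.21). HOXA11-AS had 259, 253 and 337 against 298, 242 and 369 (0.05, SE 0.20). HOXA-AS2, HOXA-AS3, HOXA10-AS, HOXB-AS1, HOXC-AS1, HOXC-AS2, HOXC-AS3, HOXD-AS2 and HAGLROS were not called, and PRAC2 was not tested.

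No gene that flanks the clusters was called. Of 16 tested neighbours, edgeR and DESeq2 called 0 and none had an unadjusted p under 0.05, with log2 fold changes from −0.23 (TTLL6) to 0.33 (EVX1). Over all genes tested, edgeR called 1.5% higher and 0.72% lower, and 6.59% had such a p. A count of 0 in so short a list is close to these shares. EVX1, the homeobox gene beyond HOXA13, had 91, 104 and 127 counts over the HAP1 libraries and 151, 127 and 123 over those of HELLS KO, with overlapping CPM. The other flanking genes were SKAP2 and HIBADH beside HOXA, CALCOCO2, SNX11, CBX1 and SNF8 beside HOXB, CALCOCO1, SMUG1, CBX5, HNRNPA1 and ATP5MC2 beside HOXC, and MTX2, LNPK and ATP5MC3 beside HOXD. The difference at HOXC11, HOTAIR and HOXC13-AS was not seen in the tested genes on either side of that cluster.

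No partner or chromatin regulator of HOX genes in the lists was called. All 9 TALE cofactors, 28 Polycomb genes and 19 Trithorax and elongation genes were tested, and edgeR and DESeq2 called 0 in each list, with 0 at an unadjusted p under 0.05. Their log2 fold changes ran from −0.24 to 0.17, from −0.21 to 0.17 and from −0.07 to 0.23. Among all genes tested, edgeR called 1.5% higher and 0.72% lower, and 6.59% had an unadjusted p under 0.05. By mean CPM, which is not scaled to gene length, MEIS2 was among the 2 highest cofactors and RBBP4 and CBX2 were the highest Polycomb genes. KMT2D and KMT2A were the highest Trithorax genes by the same measure. Of 14 tested Cdx and retinoid genes, which act upstream of HOX genes in the embryo, 1 was called lower and 0 higher, with 5 at an unadjusted p under 0.05. That gene was ALDH1A2, which makes retinoic acid, with 274, 262 and 768 counts over the HAP1 libraries and 76, 79 and 166 over those of HELLS KO (−2.0, SE 0.27, adjusted p 0.011). Its call was lost without HELLS KO replicate 1 (adjusted p 0.061) or replicate 2 (0.081) and with limma on log2(FPKM + 1) (0.092) or log2(FPKM + 0.1) (0.057), and the receptors RARG and RXRA were not called. In the fit blocked on replicate number and with DESeq2, 1 gene of this list was called higher and 3 lower, while 0 were called higher and 0 to 2 lower without 1 library, and 0 with either limma fit.

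Some homeobox and patterning factors outside the HOX clusters were called. The count table held 141 of these factors and 100 were tested, of which 4 were called higher (EMX2, IRX4, POU3F4 and TBX15) and 5 lower (among them EN1, GSX2, IRX2 and PRRX1), beside 1.5% and 0.72% of all genes. EMX2, POU3F4 and TBX15 passed the filter on low counts only through HELLS KO, and GSX2 and PRRX1 only through HAP1. A gene that enters in this way can hardly be called in the other direction, so these counts are a description only. CUX1 and OTX2, the highest of the list by mean CPM, were not called. IRX4, a heart ventricle factor, had 26, 36 and 37 counts over the HAP1 libraries and 1068, 874 and 1047 over those of HELLS KO (4.91, SE 0.31, adjusted p 0.00038). POU3F4 had 0 counts in each HAP1 library and 12, 21 and 52 in HELLS KO. IRX4 stayed called in every fit run, while EMX2 and TBX15 lost the call in each of the 6 fits without 1 library. POU3F4 lost it in some of these fits (adjusted p 0.041 to 0.147). So did EN1 (0.011 to 0.113), GSX2 (0.041 to 0.129), IRX2 (0.029 to 0.124) and PRRX1 (0.018 to 0.078). The numbers called in this list depended on the fit: 1 to 3 higher and 0 to 5 lower without 1 library, 1 and 1 under the minimum of 10 counts, 1 and 0 with limma on log2(FPKM + 1), 6 and 7 with the replicate block, and 6 and 6 with DESeq2. Whether the share of calls differs between these factors and the HOX genes was not tested.

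Marker sums of 4 of 6 cell types did not overlap between the genotypes and were lower in HELLS KO. Among single genes tested, 10.1% did not overlap in CPM. The summed CPM of the 19 blood markers was 264 to 283 in HAP1 and 222 to 235 in HELLS KO, that of 6 epithelial markers 102 to 146 and 48.5 to 65.7, that of 8 mesenchymal markers 212 to 227 and 139 to 151, and that of 6 pluripotent and germ cell markers 378 to 388 and 290 to 309. The 5 neural markers overlapped, at 292 to 386 and 261 to 324, and the 4 endothelial markers summed to at most 1.16 CPM. Called genes, higher or lower, numbered 3 among the blood markers, 2 among the epithelial, 2 among the pluripotent and germ cell and 0 among the mesenchymal markers. These counts do not split the directions, and how many markers were tested was not counted. Over all genes tested 1.5% were called higher and 0.72% lower. KRT5, DCN, LUM, PECAM1, CDH5 and DDX4 had 3 counts or fewer in every library. In such bulk libraries fewer cells of a kind and less RNA per cell cannot be told apart, and the part of these markers in the HOX differences was not tested.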

How the data were processed

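The authors prepared stranded RNA-seq libraries of HAP1 and HELLS KO, aligned read pairs to GRCh38 (STAR 2.7.3a and featureCounts 2.0.6 in the submitters' processing notes) and deposited raw counts per gene. They also deposited FPKM values of the 24956 genes with more than 10 counts, 37 of the HOX genes among them. All FPKM values were recomputed from the counts, DESeq2 size factors and 1 length per gene to within 0.1%, so FPKM adds no measurement. Which annotation was counted, and with what strand setting, is not given in the sources used here.

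Symbols and coordinates came from GENCODE release 44, which matched 56321 identifiers. The test was edgeR's quasi-likelihood test (edgeR 4.0.16, R 4.3.3) on the deposited counts with TMM, a filterByExpr filter set by genotype, Benjamini-Hochberg adjustment over all genes tested and no block, and CPM is TMM-scaled. Over all genes the common biological coefficient of variation came to 0.24. A count of 3, which a count of 0 allows, is 0.123 to 0.220 CPM (counting error only). Alternatives were DESeq2 1.42.0, upper-quartile normalization, other filters, a replicate block, a batch term, fewer libraries, and limma 3.58.1 on log2(FPKM + 1) and log2(FPKM + 0.1). Deviations of same-numbered libraries from the genotype means correlated at 0.42, 0.20 and 0.78 across genes for replicates 1, 2 and 3. The deviations within a genotype cancel out, so a shift shared by both replicate 3 libraries also raises the values of replicates 1 and 2. These values therefore do not show that replicates 1 or 2 are pairs. The block fit treats same-numbered libraries as pairs, which the labels do not state.

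The members and lists were chosen with earlier results of these data known. HOX genes that passed the filter or had at least 10 counts in a library were given with all counts. From the lists, called genes, the 2 genes of each list with the highest mean CPM, and cluster RNAs and neighbours with at least 10 counts were named. Other homeobox and patterning factors were found by symbol among protein-coding genes. Some genes counted in the totals are not reported here by name. The test was tried on simulated data.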

Additional observations from a re-analysis of the deposited data

How the results depend on the processing

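Over 15 other fits, the number of HOX genes called higher was 1 in the main fit, 0 under a minimum of 10 counts per library and 0 with limma on log2(FPKM + 1), and between 0 and 1 without 1 library. The number called lower was 0 in every fit. Of 463 fold changes of HOX genes under these fits, 24 had the other sign, in 12 genes whose own log2 fold change was at most 0.24 in size. In the lists around the HOX genes, 6 genes were called higher and 6 lower. These became 1 and 2 under that minimum, 10 and 10 with the batch term, 1 and 0 with limma on log2(FPKM + 1), and 3 and 2 on log2(FPKM + 0.1). With the replicate block 10 were called lower, and with replicates 1 and 2 only 2 were called higher. Without 1 library the numbers called ranged from 1 to 3 higher and from 0 to 7 lower. The replicate block changed no call of a HOX gene. The cause of these shifts was not tested. Each fit without 1 library rests on 2 libraries of that genotype. Of the HOX genes, 25 reached 1 FPKM in HAP1, 24 without any 1 HAP1 library, and 37 reached 0.1 FPKM. Depth limits the 8 untested genes, which had at most 18 counts in a library.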
